A study of Mus musculus with 9 samples.

Results

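The vehicle-treated C2C12 cells of this series are described here on their own, without any contrast to the treated cells. C2C12 is an established mouse myoblast line, whose cells divide in growth medium and fuse into multinucleated myotubes when serum is withdrawn. The members were the 3 samples that the labels name as controls, each called a biological replicate and collected after 72 h with vehicle, out of 9 samples in all. The other 6 samples received 1 nM or 10 nM of 1,25-dihydroxyvitamin D3, 3 at each dose, and were used here only to compare array quality. The solvent, the medium and the day of differentiation are not given in the labels used here. The series title speaks of myotubes, and the line carries no other allele or agent in the labels. All 3 replicates come from the same cell line, and p-values were not computed because a single group offers no contrast.

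Skeletal muscle differentiation is driven by the myogenic bHLH factors (Myod1 and Myf5 in the committed myoblast, Myog at the onset of fusion), which bind E-box motifs together with MEF2 proteins. Dividing myoblasts then leave the cell cycle, fuse through the membrane proteins myomaker (Mymk) and myomixer (Mymx), and build sarcomeres from muscle isoforms of myosin, actin, troponin and tropomyosin. Many of these isoforms are replaced in order during development, so embryonic and neonatal isoforms mark young fibres and adult isoforms mark mature ones.

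RNA was measured on 1-colour Agilent arrays with 39429 different probes, and each level below is log2 of the processed signal minus the 75th percentile of the same array. A level of 0 is therefore the signal that 75% of the non-control spots do not exceed, and the light chain gene Myl4, at a mean of 7.32, gave 160 times that signal. A gene was taken as detected when a probe was marked well above background on vehicle replicates 1 and 2, and was represented by its brightest such probe. Of 22371 genes named through the reference table, 16615 (74.3%) were detected, and 6872 (30.7%) reached a level of 0 or more. Percentiles are ranks among the 16615 detected genes.

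Vehicle replicate 3 stood apart as an array. It had 96.4% of its spots well above background against 67.1% to 79.2% on the other 8 arrays, and 6007 of its non-control spots were marked non-uniform against 8 to 56. Vehicle replicates 1 and 2 lay on slide 1 and replicate 3 on slide 2. The other 3 arrays of slide 2, all of treated cells, had 72.8% to 76.6% of their spots well above background and 8 to 28 non-uniform spots. For the genes at or above a level of 0, replicate 3 differed from the mean of replicates 1 and 2 by a median of -0.04 (SD 0.22, 6862 genes), and 96.5% lay within 0.5. For the 9743 dimmer genes the median difference was 0.29 with an SD of 0.86, and only 58.5% of the 8585 with a value lay within 0.5. Values of genes at or above 0 are therefore given as mean ± SD over 3 replicates, and those of dimmer genes over replicates 1 and 2.

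**Figure D1:**
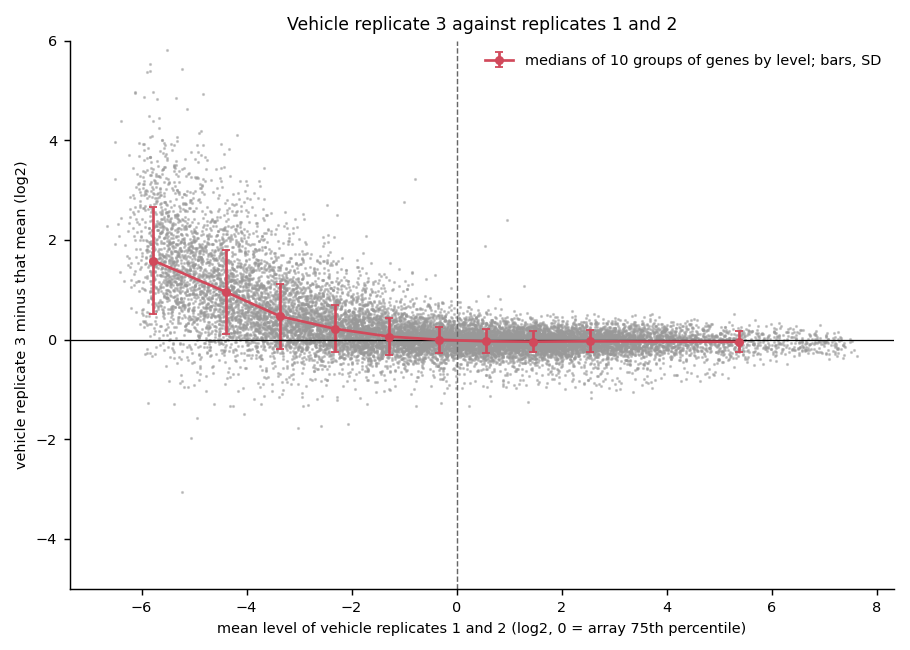
Each grey point is a detected gene, with the mean level of vehicle replicates 1 and 2 on the x axis and vehicle replicate 3 minus that mean on the y axis, both in log2 units. Red points are medians of 10 groups of genes of equal size, ordered by level, with bars of 1 SD, and they run from 1.59 in the dimmest group to -0.05 in the brightest.

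The brightness of a probe depends on its sequence and on its place in the transcript, so a level is a probe signal and not an amount of RNA. The size of this was measured on genes with several detected probes: over 7640 pairs of probes in 4807 genes, the median absolute difference between probes of the same gene was 2.03, and its 75th percentile was 3.66. The median absolute difference between replicates 1 and 2 of the same gene was 0.15. Levels of different genes are written as apart only where the replicates do not overlap and the gap is over 3.66, and by that measure 7 of 70 neighbouring pairs in 18 gene families were apart (11 without vehicle replicate 2, and 12 without the filter on dim probes). Gaps are those between means of replicates 1 and 2, so they can differ slightly from the 3-replicate means printed beside them. The glycolytic enzyme gene Gapdh shows why: its 7 probes had mean levels of 3.63, 4.44, 5.33, 6.37, 5.99, 6.77 and 7.31 in order of their start in the transcript, from base 156 to base 1175. Over all 4810 pairs on the same transcript accession, the probe nearer the 3′ end was the brighter in 64.1%. Taken over all these pairs, the brighter and the dimmer cases together, the later probe minus the earlier had a median of 0.83. The later probe minus the earlier had a median of 0.07 in pairs up to 250 bases apart and of 1.31 in pairs 251 to 1000 bases apart, with median absolute differences of 0.75 and 2.01.

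The cells carried the markers of differentiating muscle and of cycling cells, while those of myoblasts ranged from bright to dim. All 7 myotube markers were detected, against 74.3% of all genes, and all 7 were above 0, as were 30.7% of all genes. Over replicates 1 and 2, mean levels were 4.45 for Myog, 6.45 for Myh3, 6.44 for Acta1, 5.45 for Tnnt3, 4.10 for Ttn, 3.77 for Mymk and 0.74 for Ckm. The other detected probes of Ttn were at 1.26, -0.17 and -1.47. The myoblast markers Itga7 (6.23) and Cdh15 (4.57) were at or above the 96th percentile, Myod1 was at 1.62 and Pax7 at -0.04, and Myf5 was at -5.26. The cycling markers Mki67 (3.18), Ccnb1 (1.42) and Top2a (0.63) were all above 0 on the probes used. The other detected probes of Ccnb1 were at -1.71 and -1.94. Of 23 listed mitosis genes, 16 (69.6%) reached 0, against 30.7% of all genes, and others were dim, such as Aurkb at -4.06. Whether the myotube, myoblast and cycling markers came from the same cells or from a mixture of fused and unfused cells cannot be read from RNA of whole cultures. In such RNA, fewer cells of a type and less RNA per cell cannot be told apart.

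Markers of other cell types were mostly dim. Of 53 such genes on the array, 39 (73.6%) were detected, against 74.3% of all genes, and 11 (20.8%) reached 0, against 30.7% of all genes; the median percentile of the 39 was 29.8. None of the 6 adipocyte, 6 bone and cartilage, 5 liver, 6 epithelial and 4 heart muscle markers reached 0, and Adipoq, Plin1, Alb, Ttr, Epcam, Krt18, Cdh5 and Tek were not well above background. Of 7 immune markers 3 (42.9%) reached 0, namely Itgam (4.35 ± 0.16, SD, n = 3), Csf1r (0.65 ± 0.28) and the T cell gene Cd3e (0.10 ± 0.09), while Cd68 was at -1.90 ± 0.09 (n = 2) and the leukocyte gene Ptprc at -5.41 ± 0.17 (n = 2). Of 5 endothelial markers Kdr (2.25 ± 0.37, n = 3) reached 0, and of 6 neuronal and glial markers Snap25 (3.96 ± 0.25) and Syp (0.72 ± 0.25, n = 3 each). Among fibroblast and smooth muscle markers, S100a4 (6.91 ± 0.06, SD, n = 3), Tagln (6.10 ± 0.14), Pdgfrb (2.77 ± 0.08), Cspg4 (1.05 ± 0.01) and Cnn1 (0.71 ± 0.34) were bright, while Pdgfra (-1.91 ± 0.03, n = 2) and Thy1 (-3.91 ± 0.20, n = 2) were dim and Tcf21 was not well above background. The part of such cells in the muscle and matrix levels was not tested.

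**Figure D2:**
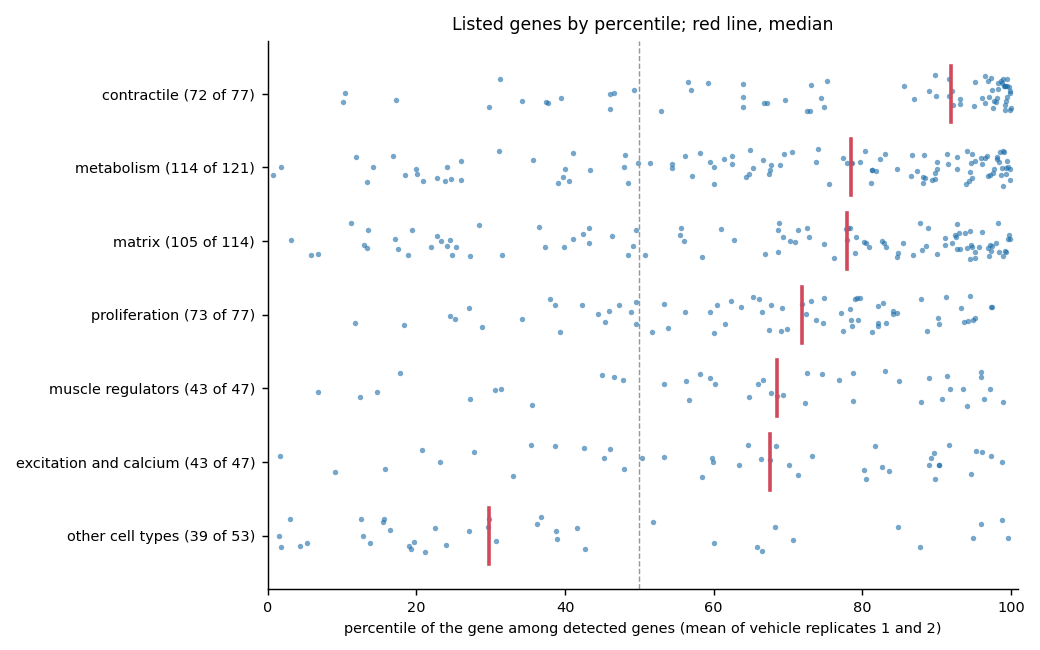
Each point is a detected gene of the list named on the y axis, placed by its percentile among the 16615 detected genes on the x axis, and the red line is the list's median. In brackets are the numbers detected and on the array; the medians run from 91.9 for contractile genes to 29.8 for markers of other cell types.

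The myogenic factors differed widely. Myogenin, the factor of the differentiating cell, measured 4.40, 4.50 and 4.37 in replicates 1 to 3, or 4.42 ± 0.07 (SD, n = 3), in the 96th percentile. MyoD measured 1.45, 1.79 and 1.48. The 3 arrays did not overlap between Myog and Myod1, but the gap lies within the difference between probes of the same gene. Myf6, the factor of the mature fibre, was at -2.78 ± 0.36 (n = 2), and Myf5, which marks proliferating myoblasts, was at -5.26 ± 0.20 (n = 2). Of 9 genes for MEF2 proteins and their cofactors all were detected, against 74.3% of all genes. Of these, 6 (66.7%) reached 0, against 30.7% of all genes, among them Mef2d at 3.37 ± 0.04 (n = 3).

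The promoter of Myog, the best studied of the myogenic promoters, is shown because its E-boxes are the letters the myogenic factors read. It is the 250 bases before the start of the gene at chr1:134289754-134290003 of GRCm38.p6, plus strand, from RefSeq, with each CANNTG in capitals.
Myog: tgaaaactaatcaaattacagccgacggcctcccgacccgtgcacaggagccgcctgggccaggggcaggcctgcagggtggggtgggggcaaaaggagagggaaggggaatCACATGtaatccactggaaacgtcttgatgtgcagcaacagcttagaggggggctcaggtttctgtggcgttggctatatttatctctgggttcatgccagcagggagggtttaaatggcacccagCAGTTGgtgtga
This window held 2 matches to CANNTG, a motif that reads the same on both strands and that 69.3% of 27025 genes in the promoter table held at least once in this window. The form CAGCTG is a subset of CANNTG. It was found in 14.7% of all genes, in 19 of 58 detected contractile genes with a promoter in the table (32.8%), and in 5 of 59 proliferation genes (8.47%). Among the muscle regulators, the list of Myog itself, 1 of 22 held CAGCTG (4.5%) and 9 held CANNTG (40.9%). Both shares lay below those of all genes. Promoters were in the table for 22 of 43 detected muscle regulators, 58 of 72 contractile genes and 59 of 73 proliferation genes. Each share covers only part of its list, so none is a check on a whole list. The share of all genes also includes genes that were not detected. These are matches of letters, and the promoter windows also differ in base composition.

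The fusion genes were bright. Myomixer measured 4.99, 5.0 and 4.76 in the 3 replicates, and myomaker, its partner in joining the membranes, measured 3.65, 3.89 and 3.63. Of 12 genes for fusion and membrane repair, 11 were detected, against 74.3% of all genes, and 9 reached 0, against 30.7% of all genes. Among the 9 were Cdon (3.84 ± 0.07, n = 3) and N-cadherin, Cdh2 (3.35 ± 0.11, n = 3), which hold apposed myoblasts together. The exceptions were Adgrb1 (-4.42 ± 0.69, n = 2), Myof (-4.66 ± 0.05, n = 2) and Elmo1, which was not well above background. The other detected probe of Cdon was at -0.93 (mean of replicates 1 and 2). Among inhibitors of differentiation, Id1, Id2 and Id3 lay between 0.08 and 0.67 on average over 3 arrays, while Id4, Twist1 and myostatin (Mstn) were not well above background.

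Contractile genes formed the brightest of the muscle lists. Of 77 on the array, 72 (93.5%) were detected against 74.3% of all genes, 56 (72.7%) reached 0 against 30.7%, and 31 were in the top 5% of detected genes. The median level of those detected was 3.43, at the 91.9th percentile.

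Among sarcomeric myosin heavy chains, the motor subunits of the thick filament, the developmental isoforms were the brightest. Embryonic Myh3 measured 6.54, 6.36 and 6.46, and neonatal Myh8 measured 5.83, 6.01 and 5.77. The adult fast isoforms followed, with Myh1 (type IIx) at 4.97, 5.07 and 5.0 and Myh4 (type IIb) at 4.88, 4.95 and 4.83. The slow isoform Myh7 was at 2.96 ± 0.02 (n = 3) and the fast oxidative isoform Myh2 (type IIa) at 0.42 ± 0.11 (n = 3). Below these lay Myh7b (-1.13 ± 0.12, n = 2), the atrial isoform Myh6 (-2.70 ± 0.06, n = 2) and Myh15 (-4.89 ± 0.46, n = 2), and Myh13, the isoform of eye and throat muscle, was not well above background. No neighbouring pair in this order was apart by the measure above, although the probes used for Myh3, Myh8, Myh1, Myh4 and Myh2 all start between base 5921 and base 6023 of their transcripts. Another probe of Myh8, which starts at base 477 of the same transcript as the probe used, gave a mean level of -1.61. A further probe, at base 2202 of a different transcript record, gave -2.90, and the remaining probe was not well above background.

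To show how unlike the probes of these related genes are, 2 pairs from matching stretches are printed with the bases in capitals that both members of a pair share when aligned without gaps. The first pair is the second probe of Myh3 (chr11:66915107-66915166, plus strand, mm9) and the probe used for Myh8 (chr11:67121925-67121984, plus strand, mm9), which shared 29 of 48 aligned bases. Their mean levels over replicates 1 and 2 were 5.90 and 5.92.
Myh3: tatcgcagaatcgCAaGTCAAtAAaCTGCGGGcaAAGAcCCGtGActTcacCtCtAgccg
Myh8: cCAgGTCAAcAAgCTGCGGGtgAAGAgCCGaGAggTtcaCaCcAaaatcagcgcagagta
The second pair is the probe of cardiac troponin T, Tnnt2 (chr1:137747976-137748288, plus strand, mm9, a span wider than the probe, which thus crosses an exon junction), and that of fast troponin T, Tnnt3 (chr7:149698467-149698526, plus strand, mm9). They shared 29 of 43 aligned bases, and measured 6.05 and 5.45.
Tnnt2: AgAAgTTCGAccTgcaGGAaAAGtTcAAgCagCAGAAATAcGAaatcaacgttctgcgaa
Tnnt3: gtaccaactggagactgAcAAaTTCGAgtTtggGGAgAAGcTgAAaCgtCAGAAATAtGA
Between the probes used for any pair of sarcomeric myosins, the longest run of identical bases was 10, between Myh1 and Myh4, and between those of any pair of actins it was 8.

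**Figure D3:**
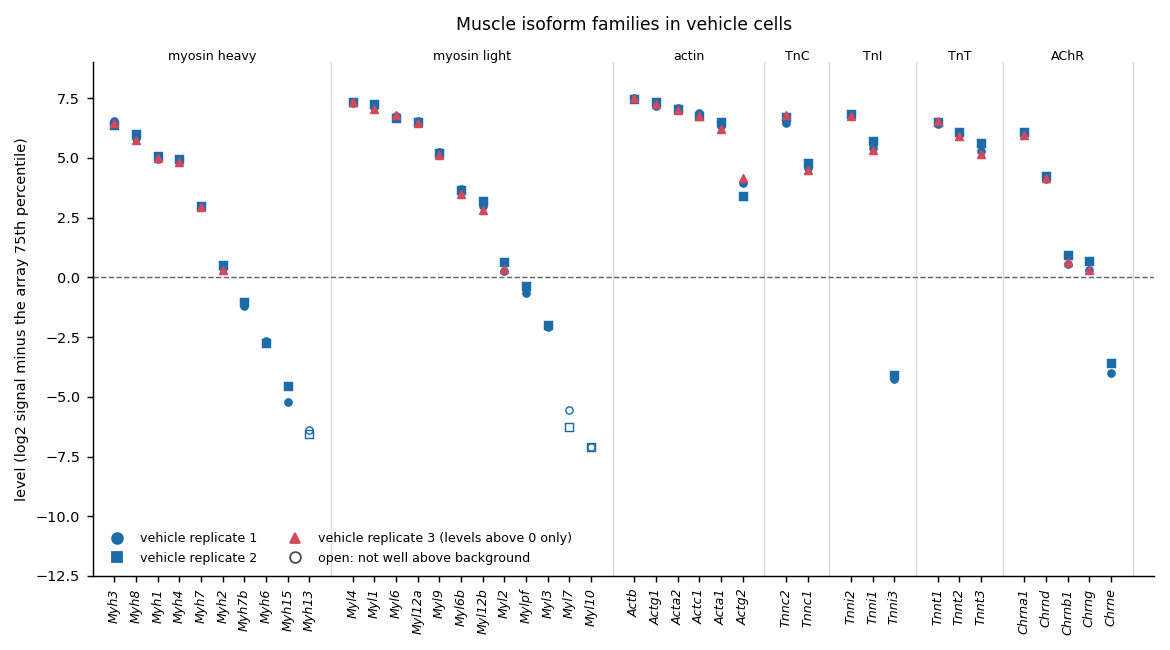
Levels (log2 signal minus the array's 75th percentile, y axis) of each gene of 7 muscle families in vehicle replicate 1 (circles), replicate 2 (squares) and, for levels above 0, replicate 3 (triangles). Open symbols are genes not well above background; the replicates of a bright gene lie close together, as for Myh7 at 2.95, 2.98 and 2.95.

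Of the myosin light chains, which brace the lever arm of the heavy chain, 10 of 12 (83.3%) were detected, against 74.3% of all genes. The embryonic and atrial form Myl4 measured 7.30, 7.34 and 7.35, the brightest contractile gene after cytoplasmic actin Actb. The fast form Myl1 measured 7.15, 7.26 and 7.05, and the non-muscle and smooth muscle forms Myl6 (6.74 ± 0.06) and Myl12a (6.50 ± 0.04, both n = 3) lay within 1 of them. The fast regulatory chain Mylpf was at -0.52 ± 0.20 (n = 2), with a single probe that starts at base 69 of its transcript. The slow regulatory chain Myl2 was at 0.43 ± 0.21 (n = 3), and the slow essential chain Myl3 was at -2.04 ± 0.06 (n = 2). The atrial regulatory chain Myl7 and Myl10 were not well above background.

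All 6 actins were bright. Cytoplasmic Actb and Actg1 measured 7.49 ± 0.03 and 7.26 ± 0.09, smooth muscle Acta2 7.04 ± 0.04, cardiac Actc1 6.79 ± 0.09 and skeletal Acta1 6.37 ± 0.15 (SD, n = 3 each). Skeletal muscle expresses the cardiac isoform early and the skeletal isoform later, and here both were among the top 1% of detected genes, with a gap smaller than that between probes of the same gene. Enteric Actg2 measured 3.95, 3.40 and 4.16, with the widest spread among them.

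The troponins, the calcium switch of the thin filament, were present in fast, slow and cardiac forms. Fast troponin I, Tnni2, measured 6.82, 6.83 and 6.77, and slow Tnni1 measured 5.42, 5.73 and 5.32. Cardiac Tnni3 was at -4.17 ± 0.14 (n = 2) and was apart from Tnni1 by 9.75. In contrast to troponin I, the cardiac form of troponin T was bright: Tnnt1 (slow), Tnnt2 (cardiac) and Tnnt3 (fast) were at 6.48 ± 0.07, 6.01 ± 0.09 and 5.36 ± 0.24 (n = 3 each), none separated. Fast troponin C, Tnnc2, was at 6.65 ± 0.17 and slow Tnnc1 at 4.63 ± 0.16 (n = 3 each), a gap of 1.90 that did not separate them. All 4 tropomyosins were in the top 5% of detected genes, between 4.67 and 6.31.

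Of 33 further sarcomere genes, 32 (97.0%) were detected against 74.3% of all genes, and 24 (72.7%) reached 0 against 30.7%. The M-band protein Myom2 (5.13 ± 0.08), the small chaperone Cryab (5.06 ± 0.04), the myosin-binding protein Mybph (4.80 ± 0.11), the stretch-responsive Ankrd1 (4.41 ± 0.20) and the thin filament nucleator Lmod3 (4.10 ± 0.13, n = 3 each) were the brightest. Titin (Ttn), the spring of the sarcomere, was at 3.99 ± 0.24, and desmin (Des), its intermediate filament, at 3.36 ± 0.30 (n = 3 each). The other detected probes of Ttn were at 1.26, -0.17 and -1.47 (means of replicates 1 and 2). The cardiac myosin-binding protein Mybpc3 was at -4.87 ± 0.25 (n = 2) and Nebl was not well above background, while the skeletal Neb was at 2.66 ± 0.12 (n = 3).

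The machinery of excitation was uneven. The acetylcholine receptor of the muscle membrane has alpha, beta, delta and either a fetal gamma or an adult epsilon subunit. Chrna1 measured 6.03, 6.09 and 5.96, and Chrnd 4.13, 4.26 and 4.18. Chrnb1 (0.71 ± 0.19) and the fetal subunit Chrng (0.44 ± 0.23, n = 3 each) were near 0. The adult subunit Chrne measured -4.01 and -3.59 in replicates 1 and 2 and was apart from Chrng by 4.31. Rapsyn (Rapsn), which clusters the receptor, was at 5.05 ± 0.08 (n = 3), and acetylcholinesterase (Ache) at -4.31 ± 0.33 (n = 2).

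The receptor's alpha subunit has a promoter with 3 matches to CANNTG, of which 2 are CAGCTG, and it is shown as the brightest of the receptor genes. The window is the 250 bases before the start of the gene, chr2:73580339-73580588 of GRCm38.p6, minus strand, from RefSeq, with the matches in capitals.
Chrna1: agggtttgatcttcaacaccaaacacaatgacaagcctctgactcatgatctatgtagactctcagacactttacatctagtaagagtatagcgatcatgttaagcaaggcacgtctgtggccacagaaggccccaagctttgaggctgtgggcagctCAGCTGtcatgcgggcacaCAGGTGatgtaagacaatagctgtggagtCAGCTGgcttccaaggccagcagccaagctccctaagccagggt
Of 5 detected receptor genes, 4 had a promoter in the table. CAGCTG was present in 3 of these 4, against 14.7% of all genes, but so few genes are not enough to read as a share.

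The calcium channel subunit Cacna1s, the voltage sensor of the transverse tubule, was at 4.48 ± 0.08, and the release channel Ryr1 at 1.84 ± 0.22 (n = 3 each). The store protein Hrc was at 4.05 ± 0.08 and cardiac calsequestrin Casq2 at 3.36 ± 0.15, while skeletal Casq1 measured 0.25, 1.11 and 0.29. The slow calcium pump Atp2a2 (3.00 ± 0.17, n = 3) and the fast pump Atp2a1 (1.15 ± 0.29, n = 3) were not separated. Cardiac Ryr2, Pln, Cacna1c and the chloride channel Clcn1 of mature fibres were not well above background. In the dystrophin complex, which ties the cytoskeleton to the matrix, 10 of 10 genes were detected, against 74.3% of all genes. Of these, 6 reached 0, against 30.7% of all genes, among them Sspn, Sgca, Sgcb and Dag1 at 2.89 to 3.33. Dystrophin itself (Dmd) was at -3.55 ± 0.18 (n = 2), and each of its 3 detected probes was below -3.

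Genes of the cell cycle were nearly all detected, most of them at middle levels. Of 77 on the array, 73 (94.8%) were detected against 74.3% of all genes, 51 (66.2%) reached 0 against 30.7%, and 3 were in the top 5%. Their median level was 1.16, at the 71.9th percentile. The 3 in the top 5% were the CDK inhibitor Cdkn1a, cyclin D3 (Ccnd3) and Cdk4.

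Cyclin D3, known to accumulate as myoblasts stop dividing, measured 5.04 in each of the 3 replicates. The cyclins of the later cycle, Ccnb2 (3.23 ± 0.17), Ccna2 (2.12 ± 0.06) and Ccnb1 (1.44 ± 0.06, n = 3 each), followed, then Ccne1 (1.01 ± 0.33) and Ccnd1 (0.68 ± 0.11), the cyclin of growing myoblasts. Ccnd2 was at -1.27 ± 0.07 (n = 2), and Ccna1 and Ccne2 were not well above background. No neighbouring cyclins were apart. Other detected probes were at 3.80 for Ccnd3, -1.71 and -1.94 for Ccnb1, and -3.99 for Ccne1 (means of replicates 1 and 2). Among CDK inhibitors, Cdkn1a (p21), which holds differentiating myoblasts out of the cycle, measured 5.01, 5.11 and 4.92. The other detected probes of Cdkn1a were at -2.22 and -3.03 (means of replicates 1 and 2). Cdkn2d, Cdkn1c and Cdkn1b were at 2.81 ± 0.05, 1.67 ± 0.21 and 1.68 ± 0.14 (n = 3 each), the last pair overlapping. Cdkn2a and Cdkn2b were not well above background.

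Against 74.3% of all genes detected and 30.7% at or above 0, all 23 mitosis genes and all 23 replication genes were detected. Of the first, 16 reached 0, led by survivin (Birc5, 3.73 ± 0.13), Cdc20 (3.50 ± 0.35) and Mki67 (3.15 ± 0.08), and of the second 17, led by Pcna (3.98 ± 0.19), the ribonucleotide reductase subunit Rrm2 (3.95 ± 0.22) and the helicase subunit Mcm6 (3.89 ± 0.37, n = 3 each). At the other end the mitotic kinase Aurkb was at -4.06 ± 0.02 and the licensing factor Cdc6 at -3.34 ± 0.17 (n = 2 each). Cdk6 was at -4.73 ± 0.12 (n = 2), against 4.20 ± 0.11 (n = 3) for its relative Cdk4.

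**Figure D4:**
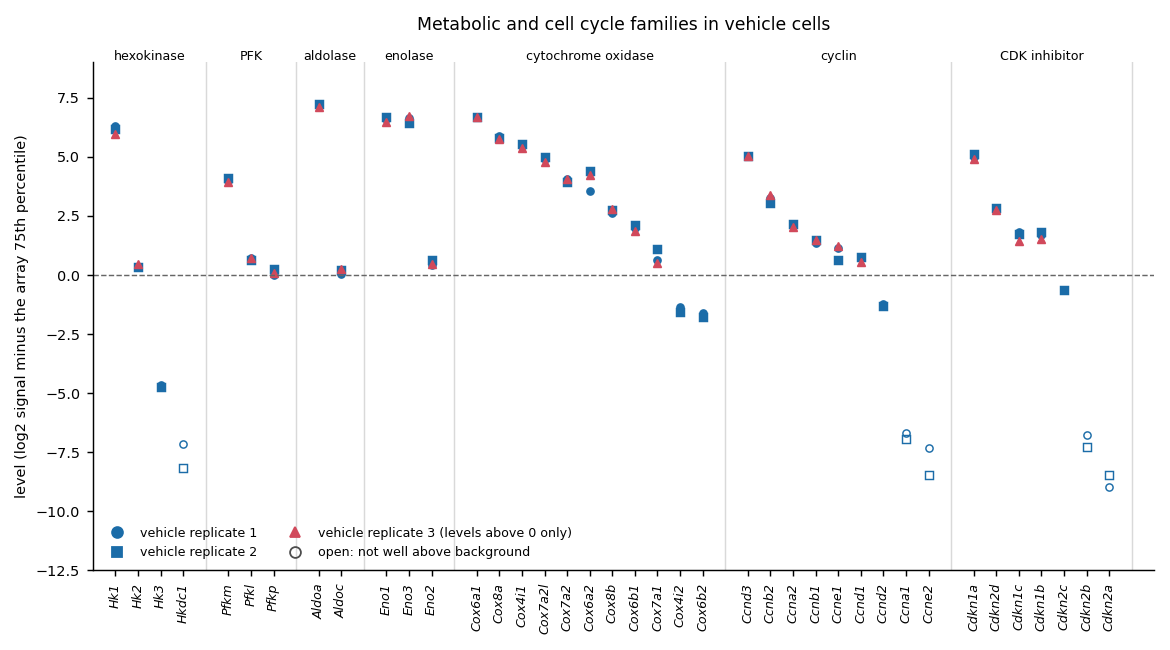
Levels (log2 signal minus the array's 75th percentile, y axis) of genes of 7 metabolic and cell cycle families in the 3 vehicle replicates, with open symbols for genes not well above background. Aldoa, Eno1, Eno3 and Hk1 lie above 5.9 on every array, while Hkdc1, Ccna1, Ccne2, Cdkn2a and Cdkn2b are open.

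Matrix genes spanned the whole range. Of 114 on the array, 105 (92.1%) were detected against 74.3% of all genes, 68 (59.6%) reached 0 against 30.7%, and 18 were in the top 5%. Collagens I and III of the interstitial matrix were among the brightest, with Col1a2 at 7.04 ± 0.05, Col3a1 at 6.46 ± 0.03 and Col1a1 at 5.68 ± 0.15 (n = 3 each). Fibronectin (Fn1) measured 7.17, 7.22 and 6.90, and the collagen-binding protein Sparc 7.35, 6.50 and 7.21, with replicate 2 below the other two. The cartilage collagens Col11a1, Col11a2, Col9a1 and Col10a1 lay between -4.54 and -2.99 (n = 2 each), and Col2a1 was not well above background.

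Of the basement membrane, Col18a1 (4.94 ± 0.05), perlecan (Hspg2, 4.21 ± 0.12), Lamb1 (3.84 ± 0.06), Lama5 (3.71 ± 0.34) and Nid1 (3.66 ± 0.23, n = 3 each) were the brightest on the probes used. The other detected probe of Hspg2 was at -1.92, and those of Nid1 were at -2.63 and -3.95 (means of replicates 1 and 2). The places of Hspg2 and Nid1 thus rest on the probe chosen. Lama2, the alpha chain of mature muscle laminin, was at 1.21 ± 0.01 (n = 3), and its receptor subunit Itga7 at 6.23 ± 0.04 (n = 3). Col4a1 and Col4a2 were at 2.20 ± 0.09 and 2.53 ± 0.04 (n = 3 each), while Col4a3 and Col15a1 were not well above background.

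On the probes used, 3 of the 4 inhibitors of matrix breakdown had values above those of every metalloproteinase on the list. Timp4 was at -3.54 ± 0.09 (n = 2). Timp2 measured 6.68, 6.59 and 6.40, Timp1 5.88, 5.50 and 5.82, and Timp3 4.81, 4.93 and 4.78. Among the metalloproteinases, gelatinase A (Mmp2) was at 3.28 ± 0.14, Mmp11 at 2.56 ± 0.22 and Mmp14 at 0.84 ± 0.21 (n = 3 each). The gaps of Timp1, Timp2 and Timp3 to Mmp2 lie within the difference between probes of the same gene. The other detected probe of Timp2 was at 3.18, below Mmp2 at 3.31 (means of replicates 1 and 2). The order of Timp2 and Mmp2 thus rests on the probe chosen. Mmp3, Mmp8, Mmp9, Mmp12 and Mmp13 were not well above background.

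Metabolic genes were mostly bright, and a few isoform families were clearly ordered. Of 121 on the array, 114 (94.2%) were detected against 74.3% of all genes, 80 (66.1%) reached 0 against 30.7%, and 24 were in the top 5%; their median percentile was 78.5. Aldolase gave a clear order, with the muscle isoform Aldoa at 7.17 ± 0.06 and Aldoc at 0.18 ± 0.12 (n = 3 each), apart by 7.07. Among enolases the ubiquitous Eno1 (6.59 ± 0.12) and the muscle form Eno3 (6.60 ± 0.15, n = 3 each) overlapped, and the neuronal form Eno2 was apart from Eno3 by 6.01. Muscle phosphofructokinase, Pfkm, was at 4.0 ± 0.08, with Pfkl at 0.69 ± 0.04 and Pfkp at 0.11 ± 0.13 (n = 3 each); Pfkm and its neighbour Pfkl were not apart. Hexokinase 1 was apart from the muscle isoform Hk2 by 5.90. The other detected probes of Hk1 were at 4.26 and -1.21, so that order rests on the probe chosen.

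Lactate dehydrogenase A (Ldha), the form of glycolytic tissue, measured 6.96, 6.86 and 6.95, and the heart form Ldhb -0.05 ± 0.08 (n = 2). The other detected probes of Ldha were at 3.58 and 1.31 (means of replicates 1 and 2), so the size of this difference rests on the probe chosen. The glucose carrier Slc2a1 was at 2.95 ± 0.13 (n = 3), and the insulin-responsive carrier Slc2a4 at -2.72 ± 0.14 (n = 2). Muscle creatine kinase, Ckm, a late gene of differentiation, measured 0.68, 0.80 and 0.57, and the brain form Ckb 2.66, 2.69 and 2.86. The mitochondrial form of muscle, Ckmt2, was at -3.25 ± 0.31 and muscle AMP deaminase, Ampd1, at -3.39 ± 0.39 (n = 2 each). Myoglobin (Mb), the oxygen store of muscle, was at 3.79 ± 0.21 (n = 3).

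Of the tricarboxylic acid cycle, 16 of 16 genes were detected against 74.3% of all genes, and 14 (87.5%) reached 0 against 30.7%. Malate dehydrogenase Mdh2 (6.14 ± 0.02) and citrate synthase (Cs, 5.11 ± 0.03, n = 3 each) led them. The 2 below 0, Idh1 (-0.94 ± 0.06) and Aco1 (-3.25 ± 0.17, n = 2 each), encode cytosolic enzymes, as does Mdh1, which was at 3.86 ± 0.17 (n = 3). Cytochrome oxidase, the last complex of respiration, has isoforms of heart and muscle and isoforms of other tissues. The widespread forms Cox6a1 (6.69 ± 0.01), Cox8a (5.82 ± 0.05) and Cox7a2 (4.02 ± 0.08) were higher in value than the muscle forms Cox6a2 (4.06 ± 0.44), Cox8b (2.73 ± 0.08) and Cox7a1 (0.76 ± 0.31, n = 3 each) in each of the 3 subunits, by less than 3.66 each time. No neighbours in the order of the 11 oxidase genes were apart. The mitochondrial carrier of muscle, Slc25a4, was at 6.03 ± 0.03 and Slc25a5 at 3.34 ± 0.09 (n = 3 each), not separated. Fatty acid genes reached 4.66 ± 0.02 for Acaa2 (n = 3), whereas the muscle carnitine transferase Cpt1b was at -3.88 ± 0.21 and the coactivator Ppargc1a at -4.03 ± 0.49 (n = 2 each).

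The untreated cells carried the receptor that the study's ligand binds. Vdr measured 1.94, 2.08 and 2.06, or 2.03 ± 0.07 (n = 3), at the 80.9th percentile, and its partner Rxrb measured 3.06, 2.90 and 3.15. The 24-hydroxylase gene Cyp24a1, a target of the receptor, measured -5.41 and -4.65 in replicates 1 and 2, and the activating enzyme Cyp27b1 -3.87 and -4.42.

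The 40 highest genes included 11 for ribosomal proteins or their ubiquitin and ubiquitin-like fusions, the mitochondrial oxidase subunits COX1 and COX2, and 9 members of the lists above: Actb, Ppia, Myl4, Gapdh, Actg1, Myl1, Aldoa, Fn1 and Rplp0. Tpt1, the translationally controlled tumour protein, was the highest at 7.54, 7.70 and 7.28, and the imprinted non-coding RNA H19, known from embryonic muscle, was at 7.16, 7.21 and 7.17, with another detected probe at -3.52. Among the 40 were also genes known mainly from other tissues, such as the chemokine Cxcl11, the immune receptor Pirb and the bile acid carrier Slc10a1. In 14 of the 27 with several detected probes, another probe of the same gene was lower by more than 3.66. Elk1 measured 7.39 on one probe and -4.09 on another, and Pirb 7.15 and -5.88 (means of replicates 1 and 2).

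Several of these probes share sequence with probes of unrelated genes. In 13 of the 40 (32.5%) the probe has a run of 20 bases in common with a probe of at least 1 other gene, against 3.51% of all detected genes, and in 5 of the 40 (12.5%) with probes of 5 or more other genes, against 0.716%. The longest run common to the probes of Glrx2, Elk1, Ndor1 and Cxcl11, of 24 bases, and a run of 30 bases common to those of Medag, Ppm1k and Pirb are printed because the genes of each set differ in function; no longer run than 30 was searched. The first belongs to the B1 family of interspersed repeats, a background fact from knowledge of the mouse genome and not from these files.
Glrx2, Elk1, Ndor1 and Cxcl11: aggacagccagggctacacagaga
Medag, Ppm1k and Pirb: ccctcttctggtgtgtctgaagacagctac
The 5 probes with the first run had levels of 7.0 to 7.56, and the 3 with the second 7.15 to 7.35. For the 66 genes whose brightest probe shared a run with 5 or more others and that had a detected probe without one, the latter was lower by a median of 5.85. For 4741 other genes with several detected probes, the next probe was lower by a median of 1.88.

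**Figure D5:**
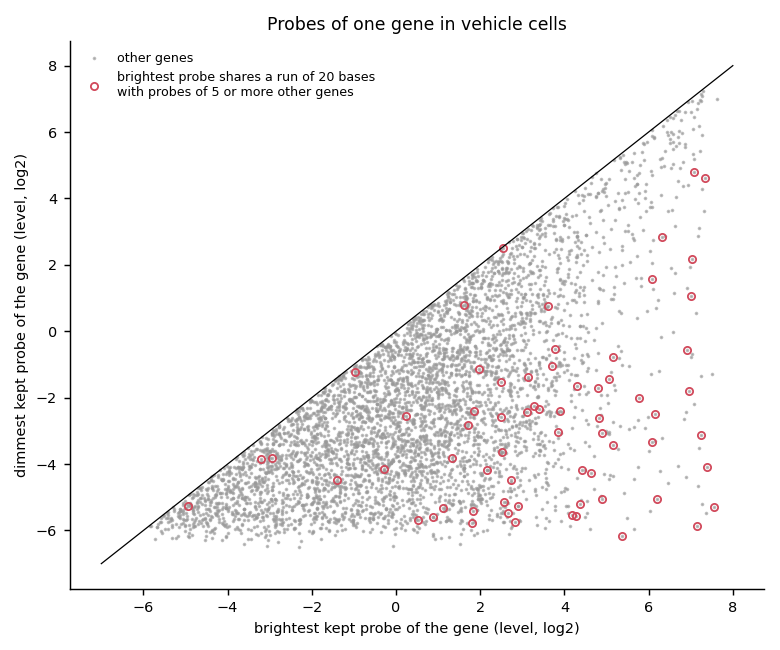
Each point is a gene with 2 or more detected probes, with its brightest probe on the x axis and its dimmest on the y axis (log2 levels, mean of vehicle replicates 1 and 2; the line marks equality). Red circles are 66 genes whose brightest probe shares a run of 20 bases with probes of 5 or more other genes, many of them near the top of the x axis and far below the line.

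In the lists, 3 genes were represented by such a probe: the leukocyte integrin Itgam, the synaptic gene Snap25 and the cofactor Eya1. Itgam measured 4.53, 4.31 and 4.21 on a probe that shares a run of alternating C and A, shown here, with that of Snap25.
Itgam and Snap25: cacacacacacacacacaca
The other detected probes of Itgam were at -3.81 and -4.19, and without sequence-sharing probes its percentile was 20.8 in place of 95.9. Snap25 (4.20, 3.97 and 3.70) and Eya1 (2.67, 3.25 and 2.16) had no other detected probe. The endothelial receptor Kdr measured 2.50, 2.43 and 1.83 on one probe and was not well above background on its other. Of the 11 markers of other cell types at or above 0, Csf1r likewise had other probes at -1.17 and -4.20.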

How the data were processed

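Total RNA of 3 vehicle samples, with 6 treated samples for array quality only, was labelled with Cy3 and hybridised to 1 Agilent array each, per the labels' protocols. The deposited scanner files give intensity per spot as background-corrected processed signal, where the submitters' processing notes name Agilent Feature Extraction 11.5.1.1, and other marks per the file headers (well above background, non-uniform, positive and significant, saturated; no spot was saturated). The authors' deposited value table holds log2 values of the same arrays, made with limma per the submitters' processing notes; its centring is not stated, and it served as an alternative only. Probe coordinates are those of mm9 in the scanner files.

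From the processed signal, log2 minus the 75th percentile of each array's non-control spots was taken, non-uniform spots were left out and spots of a probe averaged. Probes were named through the RefSeq table of GRCm38.p6, 27655 by accession and 3717 by symbol; 8057 without a match were left out. Of the listed genes, 1 old symbol had no probe by that name. The number of arrays limits the precision. The gene list members, the 40 highest genes and the 10 with the largest difference between replicates 1 and 2 could be named, and genes whose probes share sequence were chosen after their values were seen. The samples, members and lists were chosen with earlier results of these data known. Some genes of the lists are counted but not reported by name here. Ranking was tested on simulated data in which the brightest probe of each gene was set at the true level. That checks the computation only, and cannot show that the brightest probe gives the true rank in these data. Alternatives were other marks, normexp (offset 50) with quantile normalization (limma 3.58.1, R 4.3.3), median scaling, the value table, the median over probes, no filter, all 3 arrays, each replicate left out and, chosen after seeing the data, no sequence-sharing probes. Tables were made with Python 3.11.15 and pandas 2.3.3.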

Additional observations from a re-analysis of the deposited data

How the results depend on the processing

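Counts of detected genes ran from 15548 to 22356 over the alternatives. The upper counts cannot exceed the 22371 named genes or the size of a list, so they are no check of stability. Without the filter on dim probes, nearly every named gene is counted, whether well above background or not. The lowest counts lay near those given, with 71 contractile genes in place of 72 and 38 markers of other cell types in place of 39. The number of neighbouring family pairs apart was 7, but 12 without a filter on dim probes; leaving out a replicate gave 7 to 11, with 11 without vehicle replicate 2, and the cause was not tested. The median percentile of contractile genes stayed between 90.3 and 92.5, that of proliferation genes between 67.7 and 77.1, and that of markers of other cell types between 25.9 and 39.97. Taking the median over the probes of a gene moved 57 of 504 members by more than 10 percentile points, and leaving out the dim filter moved 186, where the ranking then holds more genes. Leaving out sequence-sharing probes moved only Itgam of the 502 remaining members by more than 10, while Snap25 and Eya1, with no other detected probe, dropped out. No paired analysis was possible because the report describes a single group. Low levels are limited by background, most of all on replicate 3.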

Other observations

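Vehicle replicate 2 differed slightly from the other two arrays in the same direction for many genes of a list, a pattern noticed after the values were seen. Over the 6862 genes at or above a level of 0, replicate 2 was the highest of the 3 arrays for 36.0% and the lowest for 39.1%, with a median difference of 0.00 from the mean of replicates 1 and 3. Among contractile genes it was the highest for 35 of 56 (62.5%) and the lowest for 11, with a median difference of 0.13. Excitation and calcium genes were alike, with 17 of 26 highest and 3 lowest. Among proliferation genes it was the lowest for 26 of 51 (51.0%) and the highest for 15, with a median difference of -0.11. Casq1 measured 0.25, 1.11 and 0.29 and desmin (Des) 3.23, 3.70 and 3.15, while Mcm6 measured 3.94, 3.50 and 4.23, Ccne1 1.16, 0.63 and 1.22, and Rrm2 4.11, 3.69 and 4.04. The genes of a list share the same 3 cultures, so these counts are a description, and no cause was tested.

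A few bright genes differed far more between replicates 1 and 2 than the median difference of 0.12 among bright genes. Csnk1g2 measured 3.24, -1.32 and 3.36, and Lrrk1 measured -1.51, 2.59 and 2.42, so in each case a single array fell away from the other two. Zc3hav1 (2.38, 0.18 and 2.35) and Sipa1 (1.53, 0.10 and 1.64) were low on replicate 2 only.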
